A study of Mus musculus with 31 samples.

Results

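The Dlk1-Dio3 locus is an imprinted gene cluster on mouse chromosome 12 and was followed here through its members Dlk1, Meg3, Rian, Mirg, Rtl1 and Dio3. Members were all probe sets annotated to 1 of these symbols alone, which gave 19 of the 45101 probe sets of the array. Meg3 had 11 of them, Rian 4, Mirg 2 and Dlk1 2, so that 4 of the 6 genes were measured. Rtl1 and Dio3 had 0 probe sets of their own, and 0 probe sets shared between several symbols included a member, so neither gene was analysed here.

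Imprinted genes are transcribed mainly from the copy inherited from 1 parent. In this cluster the protein-coding genes Dlk1, Rtl1 and Dio3 are expressed from the paternal chromosome, and the non-coding RNAs Meg3, Rian and Mirg from the maternal one, where they lie in the same orientation and carry many small RNAs in their introns. A methylated control region between Dlk1 and Meg3 sets this choice, and in mouse induced pluripotent stem cells (iPSCs) loss of the non-coding RNAs by gain of methylation there is a known variation between lines. DNA methylation was not measured in these samples.

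RNA was measured on 31 Affymetrix arrays, 1 per sample, in 4 groups. At day 0 there were 10 arrays of control iPSCs of strain CD1 and 6 arrays of Nos3-/- iPSCs of strain B6.129P2-Nos3tm1unc/J. At day 11 there were 9 arrays of control and 6 arrays of Nos3-/- embryoid bodies, aggregates in which the iPSCs had differentiated spontaneously. The iPSCs of both genotypes had been reprogrammed with Sendai virus from fibroblasts of the tail tip, taken from male adults. Day 0 cultures grew on inactivated mouse embryonic fibroblasts (feeder cells), and the embryoid bodies were formed in Aggrewell plates. Nos3 encodes endothelial nitric oxide synthase. The 2 genotypes come from different strains, so a difference by genotype and one by strain cannot be told apart, and the labels do not say which arrays share an iPSC line, mouse or culture. The p-values therefore set differences against the spread of these arrays only, part of which may be technical. In RNA of mixed cells, fewer expressing cells and less RNA per cell cannot be told apart.

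Array medians lay between 6.13 and 6.23 on the log2 scale, and the lowest correlation between 2 arrays was 0.93. The Nos3 probe set read from 6.36 to 7.43 on all arrays and did not separate the genotypes: the log2 difference was 0.33 at day 0 (limma, adjusted p = 0.0366) and -0.17 at day 11 (adjusted p = 0.402). Whether its probes lie inside the disrupted part of the gene was not known from the labels or annotation, and the probe set gave no check of the genotype labels. Of 12 cardiomyocyte markers, 11 rose from day 0 to day 11 in control, against 16% of all genes, and 8 in Nos3-/- cells, against 12.8%. An array stood apart in each Nos3-/- group. Nos3-/- day 11 replicate 3 had a mean of these 12 markers of 5.72, against 7.26 to 9.77 on the other 5 arrays, and a mean of 12 pluripotency markers of 9.11, against 10.31 to 11.63. Nos3-/- day 0 replicate 3 had a pluripotency mean of 9.33, against 11.49 to 11.96. Without either array, 0 member probe sets passed by genotype at day 0 and 16 at day 11, as with all arrays, and 5 in place of 7 passed over time in Nos3-/- cells.

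The members lie in the order Dlk1, Meg3, Rtl1, Rian, Mirg and Dio3 in the RefSeq annotation of assembly GRCm38.p6. Windows of 250 bases before and 50 bases after the annotated start are printed for the measured genes because the results turn on 3 transcripts that moved together and 1 that did not. Capitals mark matches to the cyclic AMP response element TGACGTCA and to the TATA box letters TATAAA, searched on both strands. Sequences are RefSeq's for GRCm38.p6, written 5′ to 3′.
Dlk1, chr12:109452573-109452872, + strand: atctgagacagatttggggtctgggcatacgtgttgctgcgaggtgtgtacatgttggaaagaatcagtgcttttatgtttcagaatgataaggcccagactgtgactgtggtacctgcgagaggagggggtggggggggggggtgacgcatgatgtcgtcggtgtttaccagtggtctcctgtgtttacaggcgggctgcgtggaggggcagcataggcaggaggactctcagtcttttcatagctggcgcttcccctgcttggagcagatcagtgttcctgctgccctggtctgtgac
Meg3, chr12:109540746-109541045, + strand: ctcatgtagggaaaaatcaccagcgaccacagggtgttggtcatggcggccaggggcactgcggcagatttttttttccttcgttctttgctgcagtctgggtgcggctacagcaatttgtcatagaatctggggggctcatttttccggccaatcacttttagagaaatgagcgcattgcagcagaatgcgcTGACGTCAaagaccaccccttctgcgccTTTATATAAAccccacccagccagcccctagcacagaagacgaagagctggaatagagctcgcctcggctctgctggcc
Rian, chr12:109603695-109603994, + strand: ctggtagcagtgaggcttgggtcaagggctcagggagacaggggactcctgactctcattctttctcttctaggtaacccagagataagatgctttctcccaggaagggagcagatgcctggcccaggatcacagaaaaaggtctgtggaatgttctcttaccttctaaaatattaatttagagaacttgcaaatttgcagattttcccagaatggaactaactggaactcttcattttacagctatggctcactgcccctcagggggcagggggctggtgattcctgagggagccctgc
Mirg, chr12:109734731-109735030, + strand: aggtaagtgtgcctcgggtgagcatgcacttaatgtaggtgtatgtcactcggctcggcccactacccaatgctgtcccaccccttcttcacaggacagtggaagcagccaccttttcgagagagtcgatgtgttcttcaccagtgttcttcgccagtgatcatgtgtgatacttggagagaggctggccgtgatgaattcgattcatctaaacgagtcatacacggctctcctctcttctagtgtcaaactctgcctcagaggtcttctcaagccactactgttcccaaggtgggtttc
The Meg3 window held TGACGTCA, whose first base lies 57 bases before the start, and 2 overlapping TATAAA matches, 1 on each strand. The letters CCAAT began 100 bases before the start in the Meg3 window and 184 bases before it in the Mirg window. TGACGTCA occurred in 1.79% of 32851 such windows of all genes, TATAAA in 13.6% and CCAAT in 37.4%, on either strand. The other 3 windows printed had no match to TGACGTCA or TATAAA, which says only that these letters are not in these windows. The table holds a second annotated start of Meg3, whose window (chr12:109545148-109545447, + strand, not printed) had no match to these 3 motifs and 1 CG. CG dinucleotides, the letters that carry DNA methylation, numbered 13 in the Meg3 window printed, 10 in the Mirg window, 9 in the Dlk1 window and 0 in the Rian window, against a median of 7 over all windows.

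RefSeq's table lists 58 miRNA hairpins between the start of Dlk1 and the end of Dio3, 54 of them on the plus strand, which is that of Meg3, Rian and Mirg. Of these, 10 lie within Mirg, 3 within Rian, 1 within Meg3 and 15 within the span of Rtl1, 13 of the latter on the plus strand and thus antisense to Rtl1. The array probe sets measure the host transcripts and not the miRNAs. A few mature forms are shown to give the small RNAs that lie within Meg3, Rian and Mirg, whose levels follow, and opposite Rtl1, where no level was analysed here, with the seed, bases 2 to 8, in capitals.
mmu-miR-770-3p: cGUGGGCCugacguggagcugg
mmu-miR-127-3p: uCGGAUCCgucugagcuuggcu
mmu-miR-433-3p: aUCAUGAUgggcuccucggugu
mmu-miR-341-3p: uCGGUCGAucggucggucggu
mmu-miR-370-3p: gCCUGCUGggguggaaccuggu
mmu-miR-453: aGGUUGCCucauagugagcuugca
mmu-miR-496a-5p: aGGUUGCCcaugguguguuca
mmu-miR-377-3p: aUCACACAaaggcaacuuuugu
mmu-miR-369-3p: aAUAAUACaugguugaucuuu
mmu-miR-410-3p: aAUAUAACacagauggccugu
The first lies within Meg3, the next pair opposite Rtl1, the following pair within Rian and the rest within Mirg. Within Mirg, miR-453 and miR-496a-5p share the seed GGUUGCC, while the other 8 forms shown have seeds of their own.

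Levels are given on the log2 scale as deposited, after the authors' RMA summary, and each gene is described first by whichever of its probe sets was brightest on average over the 31 arrays. Levels of different probe sets are not set against each other, since probes differ in brightness.

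Meg3 is the long non-coding RNA at the upstream end of the maternally expressed unit. Its probe set 1439380_x_at ran from 8.35 over a median of 11.35 to 12.37 on the 10 control day 0 arrays and from 8.50 over 10.40 to 11.36 on the 6 Nos3-/- day 0 arrays. At day 11 it ran from 7.06 over 12.59 to 13.48 on the 9 control arrays and from 7.19 over 7.34 to 8.98 on the 6 Nos3-/- arrays. The 5 highest control day 11 arrays read 12.59, 12.76, 12.99, 13.02 and 13.48, and the other 4 read 7.06, 9.07, 9.23 and 9.33. Of the 9 control arrays 8 lay above every Nos3-/- array at day 11, and the remaining one, replicate 1 at 7.06, lay below all of them. The suffix _x_at marks a probe set that may also bind other transcripts. The other 10 Meg3 probe sets are counted with the tests.

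Rian is the non-coding RNA that hosts a cluster of small nucleolar RNAs. Its probe set 1452899_at ran from 10.16 over 11.78 to 12.58 on control day 0 arrays and from 9.32 over 10.34 to 10.94 on Nos3-/- day 0 arrays. On control day 11 arrays, replicates 3, 4, 5, 6 and 8 read 13.03, 13, 13.01, 13.03 and 13.19, and replicates 1, 2, 7 and 9 read 6.21, 9.73, 8.82 and 9.48. On Nos3-/- day 11 arrays, replicates 1 to 6 read 6.94, 5.96, 7.10, 7.82, 6.54 and 6.78. The 5 highest control arrays at day 11 thus lay between 13 and 13.19, 3 control arrays lay between 8.82 and 9.73, and replicate 1 lay among the Nos3-/- arrays.

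Mirg is the non-coding RNA at the downstream end and hosts a large miRNA cluster. Its probe set 1457030_at on control day 0 arrays, replicates 1 to 10, read 6.75, 6.91, 7.15, 10.02, 9.16, 9.44, 9.92, 6.11, 10.27 and 5.94. On Nos3-/- day 0 arrays it ran from 5.52 over 6.66 to 7.11. At day 11 it ran from 5.23 over 10.18 to 10.64 on control arrays and from 5.20 over 5.62 to 5.84 on Nos3-/- arrays. At day 0 the 5 highest control arrays, all at 9.16 or above, were clear of every Nos3-/- array, while of the other 5, which ran from 5.94 to 7.15, 4 lay within the Nos3-/- range and replicate 3 lay just above it.

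Dlk1, the paternally expressed member, encodes a membrane protein with epidermal growth factor-like repeats that is related to the Notch ligands. Its probe set 1449939_s_at ran from 5.91 over 6.28 to 6.98 on control day 0 arrays and from 5.58 over 5.83 to 7.36 on Nos3-/- day 0 arrays. At day 11 it ran from 8.22 over 10.30 to 11.73 in control and from 5.57 over 9.61 to 10.56 in Nos3-/- embryoid bodies. All day 11 arrays but Nos3-/- replicate 3, which stood apart as described above, were higher than every day 0 array. On control day 11 replicate 1, where Meg3, Rian and Mirg were lowest, Dlk1 read 10.04, close to the group median.

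**Figure D1:**
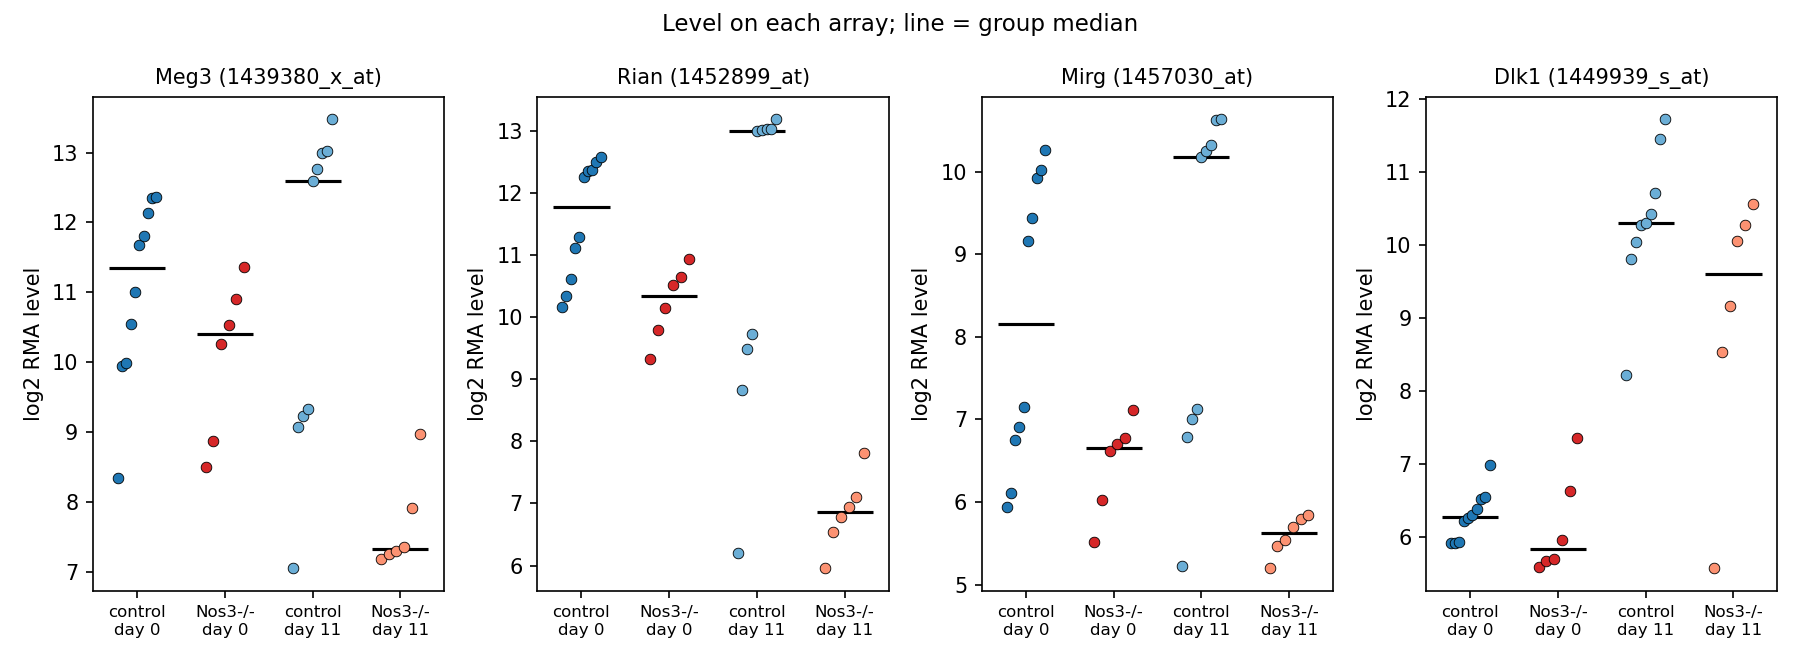
Log2 RMA level (vertical axis) of 1 probe set each of Meg3, Rian, Mirg and Dlk1 on every array, by genotype and day, with arrays sorted by level within a group and a line at the group median. In control day 11 the 3 non-coding RNAs leave a gap between the 5 highest arrays and the rest, for Rian from 9.73 to 13, while the Nos3-/- day 11 arrays stay at or under 8.98 for Meg3, 7.82 for Rian and 5.84 for Mirg.

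By group means, Meg3 and Mirg were ordered control day 11, control day 0, Nos3-/- day 0 and Nos3-/- day 11 from high to low. Rian had the same order with the 2 control groups exchanged, its means being 11.56 at day 0 and 11.06 at day 11. For these 3 genes neither the days in control nor the genotypes at day 0 passed limma's test on all arrays, though at day 0 Rian passed on the arrays of that day alone and the interval for Mirg left out 0, and the ranges of control day 11 and Nos3-/- day 0 overlapped. The last step, from Nos3-/- day 0 down to Nos3-/- day 11, passed the test for Rian and Meg3 and not for Mirg, as given below with the tests. Dlk1 was ordered control day 11, Nos3-/- day 11, control day 0 and Nos3-/- day 0, and within each day the genotypes did not pass limma's test on all arrays, though at day 11 the 95% confidence interval of the difference, -2.36 to -0.25, left out 0.

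The spread between arrays of a group was wide for the non-coding RNAs in control cells. At day 11, the standard deviation between the 9 control arrays was 1 or more in 13 of the 17 non-coding probe sets, against 0.82% of all probe sets. Of the 100 probe sets of the array with the widest spread in that group, 12 were members, and Meg3 1436713_s_at ranked first of 45101 with a standard deviation of 2.75. Rian 1452899_at ranked 5 of 45101, with 2.57. Arrays were called separate clusters when the largest gap between neighbouring values exceeded 1.5 on the log2 scale and 0.4 of the range, and this held for 13 of the 17 in control day 11, against 0.304% of all probe sets. In control day 0 it held for 1 of 17, Mirg 1457030_at with a gap from 7.15 to 9.16, against 0.191% of all probe sets, and 6 of the 17 were among the 100 widest.

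In Nos3-/- embryoid bodies the spread differed between probe sets. The median standard deviation of the 17 was 0.23 there, against 0.18 over all probe sets. Several probe sets with high levels elsewhere in the series were above this, with 1.18 for Meg3 1452905_at, 0.96 for Meg3 1436713_s_at, 0.69 for Meg3 1439380_x_at and 0.62 for Rian 1452899_at. Of the 17, 1 reached 1 or more, against 1.19% of all. Whether levels near background narrowed the spread of the others was not tested. In control day 11 the corresponding median was 2.11, against 0.19 over all probe sets. At day 0 the medians of the 17 were 1.01 in control and 0.58 in Nos3-/- cells, and the standard deviation was 1 or more in 9 and 4 of them, against 0.359% and 1.26% of all probe sets. In Nos3-/- day 0, 2 of the 17 met the rule for clusters, against 0.925% of all, and in Nos3-/- day 11 0 of 17 did, against 1.52%.

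The difference between genotypes in spread was tested by a two-sided permutation test on 1 probe set per gene and day. Deviations from the median or mean of their own group were put through all splits of the arrays, which makes the p approximate. There were 8 tests in all, with Benjamini-Hochberg adjustment. The mean absolute deviation from the group median was the first measure. By it, Mirg at day 0 passed, at 1.60 in control against 0.41 in Nos3-/- cells (permutation p = 0.0005, adjusted p = 0.004). The other 7 did not pass, among them Rian at day 11, at 2.00 against 0.43 (permutation p = 0.193, adjusted p = 0.309). With the standard deviation as measure, Meg3, Rian and Mirg at day 11 also passed, each at permutation p = 0.0002 and adjusted p = 0.000533. A p of 0.0002 is the smallest that 5005 splits of these arrays can give. The call at day 11 therefore depends on the measure of spread. For Dlk1 the values ran the other way without passing, with a standard deviation of 1.01 in control and 1.85 in Nos3-/- embryoid bodies (permutation p = 0.330, adjusted p = 0.377). The single low array above is in the latter.

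The high arrays were the same ones in every non-coding probe set. In control day 0, replicates 4, 5, 6, 7 and 9 were the 5 highest in 17 of the 17, and in control day 11 replicates 3, 4, 5, 6 and 8 were the 5 highest in 17 of the 17. For Dlk1 this held in 0 of 2 probe sets on either day. The 17 probe sets measure 3 transcripts, so they are repeated readings of the same RNAs and not independent ones. Whether replicate numbers link arrays of day 0 and day 11 is not known, nor whether the high arrays of both days come from the same lines.

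**Figure D2:**
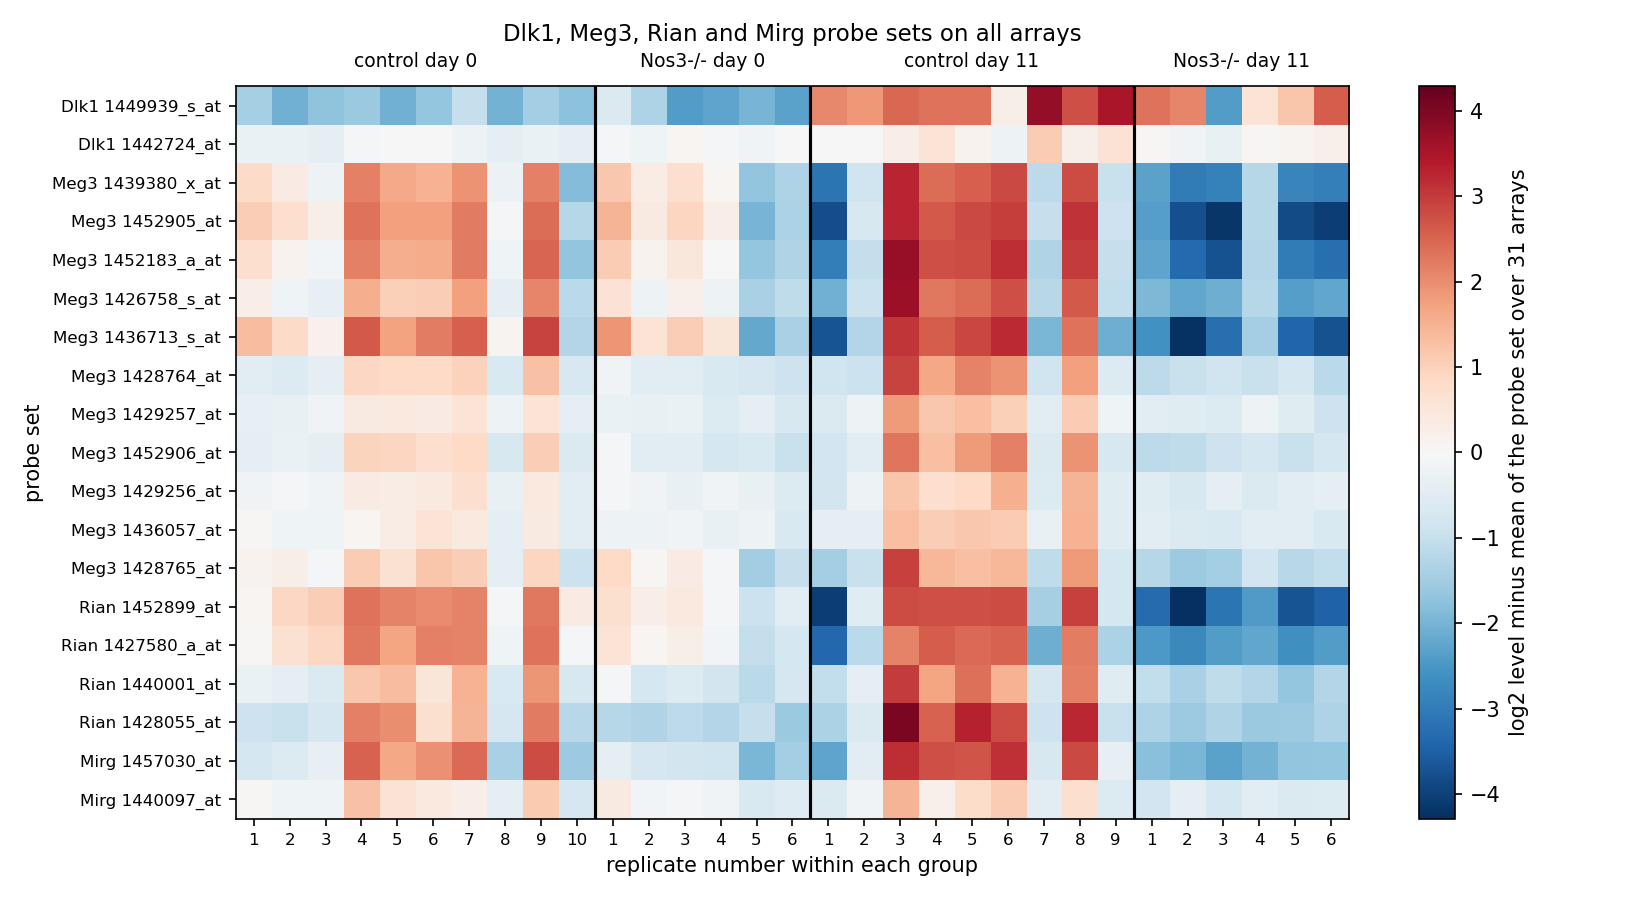
Level of each of the 19 probe sets (rows) on each of the 31 arrays (columns, by group and replicate number) minus the mean of that probe set over all arrays, on the log2 scale, red above and blue below it. The same 5 control arrays of each day are red in 17 of the 17 Meg3, Rian and Mirg rows, other day 0 arrays of both genotypes are red in some of these rows, the Nos3-/- day 11 columns are blue in them, and the Dlk1 rows mostly follow the day.

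Within groups, agreement between the 3 non-coding RNAs was computed for those of the 12 gene pairs by group that did not fall into separate clusters, which were 7, with p-values by permutation of the pairings. On the 10 control day 0 arrays, Meg3 and Rian had r = 0.81 (permutation p = 0.00672, adjusted p = 0.0146) and rho = 0.88 (permutation p = 0.00152, adjusted p = 0.00972), and r = 0.79 without the 2 arrays farthest from the Meg3 median. On the 6 Nos3-/- day 0 arrays, r was 0.98 for Meg3 and Rian, 0.97 for Meg3 and Mirg and 0.97 for Rian and Mirg (exact p = 0.00278, 0.00833 and 0.00556, each adjusted to 0.0146). The corresponding rho were 1, 0.94 and 0.94 (exact p = 0.00278, 0.0167 and 0.0167, adjusted p = 0.00972, 0.0292 and 0.0292). Without the 2 farthest arrays these r were 0.97, 0.86 and 0.89. Replicates 5 and 6 were the lowest of the 6 for all 3 RNAs, with Meg3 at 8.50 and 8.87 against 10.27 to 11.36 on the other 4.

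On the 6 Nos3-/- day 11 arrays the agreement did not pass: r was 0.82 for Meg3 and Rian (exact p = 0.0556, adjusted p = 0.0778), -0.16 for Meg3 and Mirg (exact p = 0.625, adjusted p = 0.625) and -0.33 for Rian and Mirg (exact p = 0.536, adjusted p = 0.625). The corresponding rho were 0.71 (exact p = 0.136, adjusted p = 0.191), -0.20 (exact p = 0.714, adjusted p = 0.714) and -0.54 (exact p = 0.297, adjusted p = 0.347). Without the 2 farthest arrays r was 0.61, 0.06 and -0.78. Mirg varied there over 0.64 in all, from 5.20 to 5.84, under the lowest array median of 6.13. Whether these levels lie above background was not tested, so the r with Mirg do not show that the RNAs part there. In control day 11 no r is given, since a gap sets 5 high arrays apart from the other 4. Any pair of these RNAs shares this gap. Below it, replicate 1 lay under replicates 2, 7 and 9, with Rian at 6.21 against 8.82 to 9.73.

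**Figure D3:**
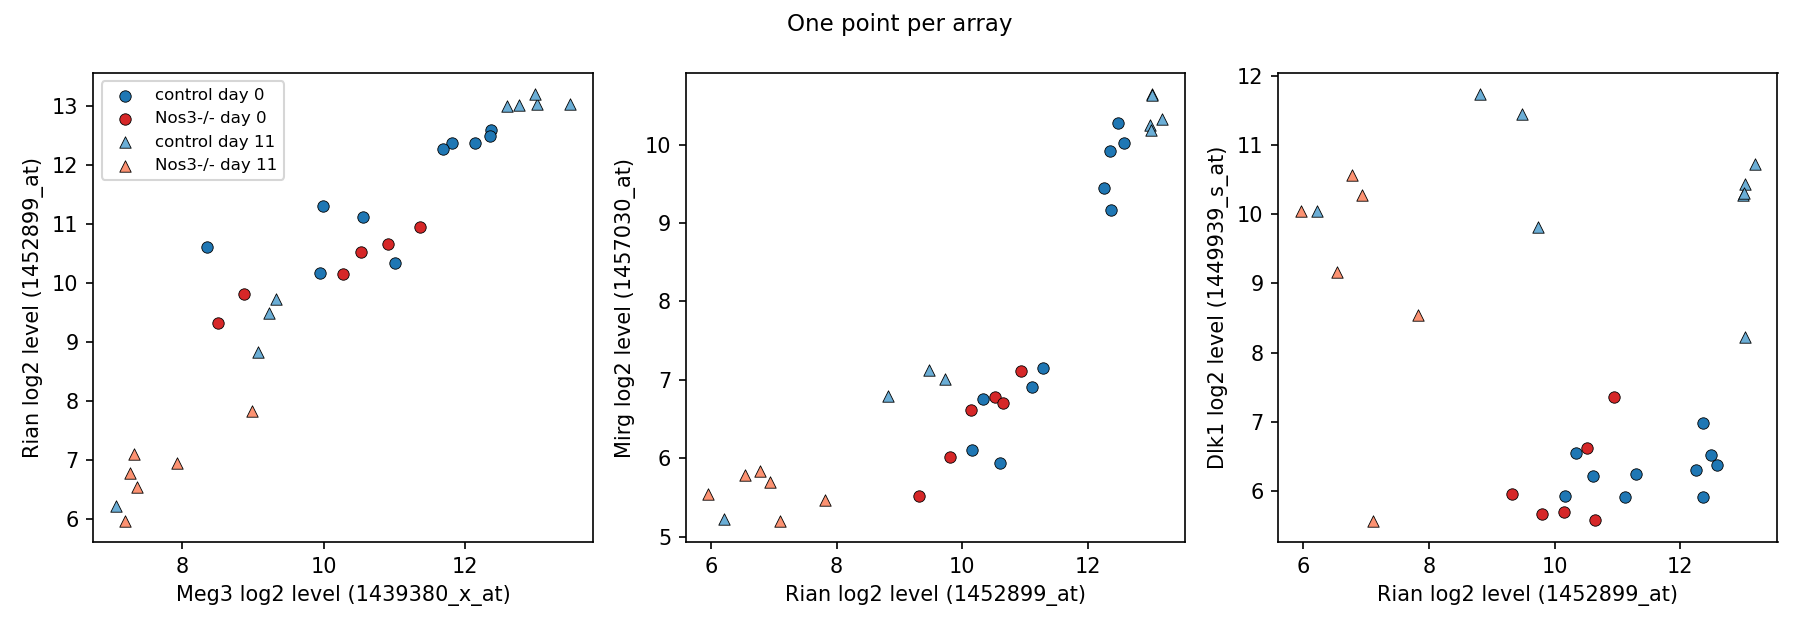
Log2 levels of Rian against Meg3, Mirg against Rian and Dlk1 against Rian, 1 point per array, coloured by genotype and with circles for day 0 and triangles for day 11. The non-coding RNAs lie along a common rise from 5.96 to 13.19 in Rian, whereas Dlk1 is 8.22 or higher on all day 11 arrays but 1 and at most 7.36 at day 0, at any level of Rian.

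At day 11, 16 of the 19 member probe sets were lower in Nos3-/- than in control embryoid bodies, all of them non-coding, against 4.48% of all probe sets lower and 8.71% changed in either direction. These were 11 of 11 for Meg3, 4 of 4 for Rian and 1 of 2 for Mirg. The log2 differences of the 17 non-coding probe sets had a median of -2.78 and ran from -4.20 to -0.88, with a median of 0.00167 over all probe sets. Rian 1452899_at fell from a control mean of 11.06 ± 2.57 (SD, n = 9) to 6.86 ± 0.62 (SD, n = 6), a difference of -4.20 (SE 0.77, 95% confidence interval -5.78 to -2.62) or 18.4-fold. Limma with Benjamini-Hochberg adjustment over all probe sets gave an adjusted p of 0.000351 for it. On all arrays, limma takes 1 spread per probe set from the 4 groups, though their spread differed as described above. Meg3 1439380_x_at differed by -3.39 (SE 0.80, limma adjusted p = 0.00511), from 11.06 ± 2.37 to 7.67 ± 0.69, which is 10.5-fold. Mirg 1457030_at differed by -3.10 (SE 0.78, limma adjusted p = 0.00847), from 8.69 ± 2.11 to 5.59 ± 0.24, which is 8.55-fold.

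These means join high and lower control arrays with a gap between them, so they do not describe a typical control culture. The 5 highest control arrays, picked by these same values, lay above the highest Nos3-/- array in 17 of the 17 non-coding probe sets. The lowest control array lay within or below the Nos3-/- range in 17 of the 17. At day 0 these counts were 14 and 17 of the 17, and the shares of all probe sets were not taken. At day 11, in 0 of the 17 the groups did not overlap, against 2.62% of all probe sets. An exact permutation test of the same mean differences, chosen after the data were seen, gave unadjusted p = 0.0038 for Rian, 0.0038 for Mirg and 0.00659 for Meg3. The other Meg3 differences ran from -4.17 at 1452905_at to -0.91 at 1429256_at, and those of the other Rian probe sets from -2.91 to -2.18. Mirg 1440097_at missed the threshold with a difference of -0.88 (SE 0.30, limma adjusted p = 0.0619).

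Fitted on the 15 day 11 arrays alone, 7 of the 19 passed in place of 16, with the 3 probe sets named first still among them. Leaving out 1 array at a time gave 14 to 17, and 16 passed without Nos3-/- day 11 replicate 3. Dlk1 was not called at day 11: 1449939_s_at differed by -1.30 (SE 0.52, limma adjusted p = 0.127) and 1442724_at by -0.32 (SE 0.13, limma adjusted p = 0.146). Without control day 11 replicate 6, whose level of 8.22 is the lowest of its group, 1449939_s_at differed by -1.57 and passed (limma adjusted p = 0.0391), and over the omissions of 1 array its adjusted p ran from 0.0391 to 0.398.

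At day 0, 0 of the 19 passed limma's test, against 11.6% of all probe sets. An unadjusted p under 0.05 was found in 3, and at least those 11.6% of all probe sets had one. All 17 non-coding differences were negative, with a median of -0.95 and a range from -1.71 to -0.35. Mirg 1457030_at differed by -1.71 (SE 0.76, 95% confidence interval -3.26 to -0.15, limma adjusted p = 0.149). Rian 1452899_at differed by -1.33 (SE 0.76, 95% confidence interval -2.88 to 0.22, limma adjusted p = 0.278), and 7 of 10 control arrays lay above every Nos3-/- array. Meg3 1439380_x_at differed by -0.95 (SE 0.79, limma adjusted p = 0.487) and Dlk1 1449939_s_at by -0.15 (SE 0.51, limma adjusted p = 0.898). The test does not show that the genotypes were alike, and in 0 of the 19 did they not overlap, against 1.72% of all probe sets.

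On the 16 day 0 arrays alone 1 of the 19 passed, which was Rian 1452899_at (SE 0.40, limma adjusted p = 0.0438). The exact permutation test of the mean difference, chosen after the data were seen, gave unadjusted p = 0.0120 for Rian, 0.0476 for Mirg, 0.166 for Meg3 and 0.587 for Dlk1.

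**Figure D4:**
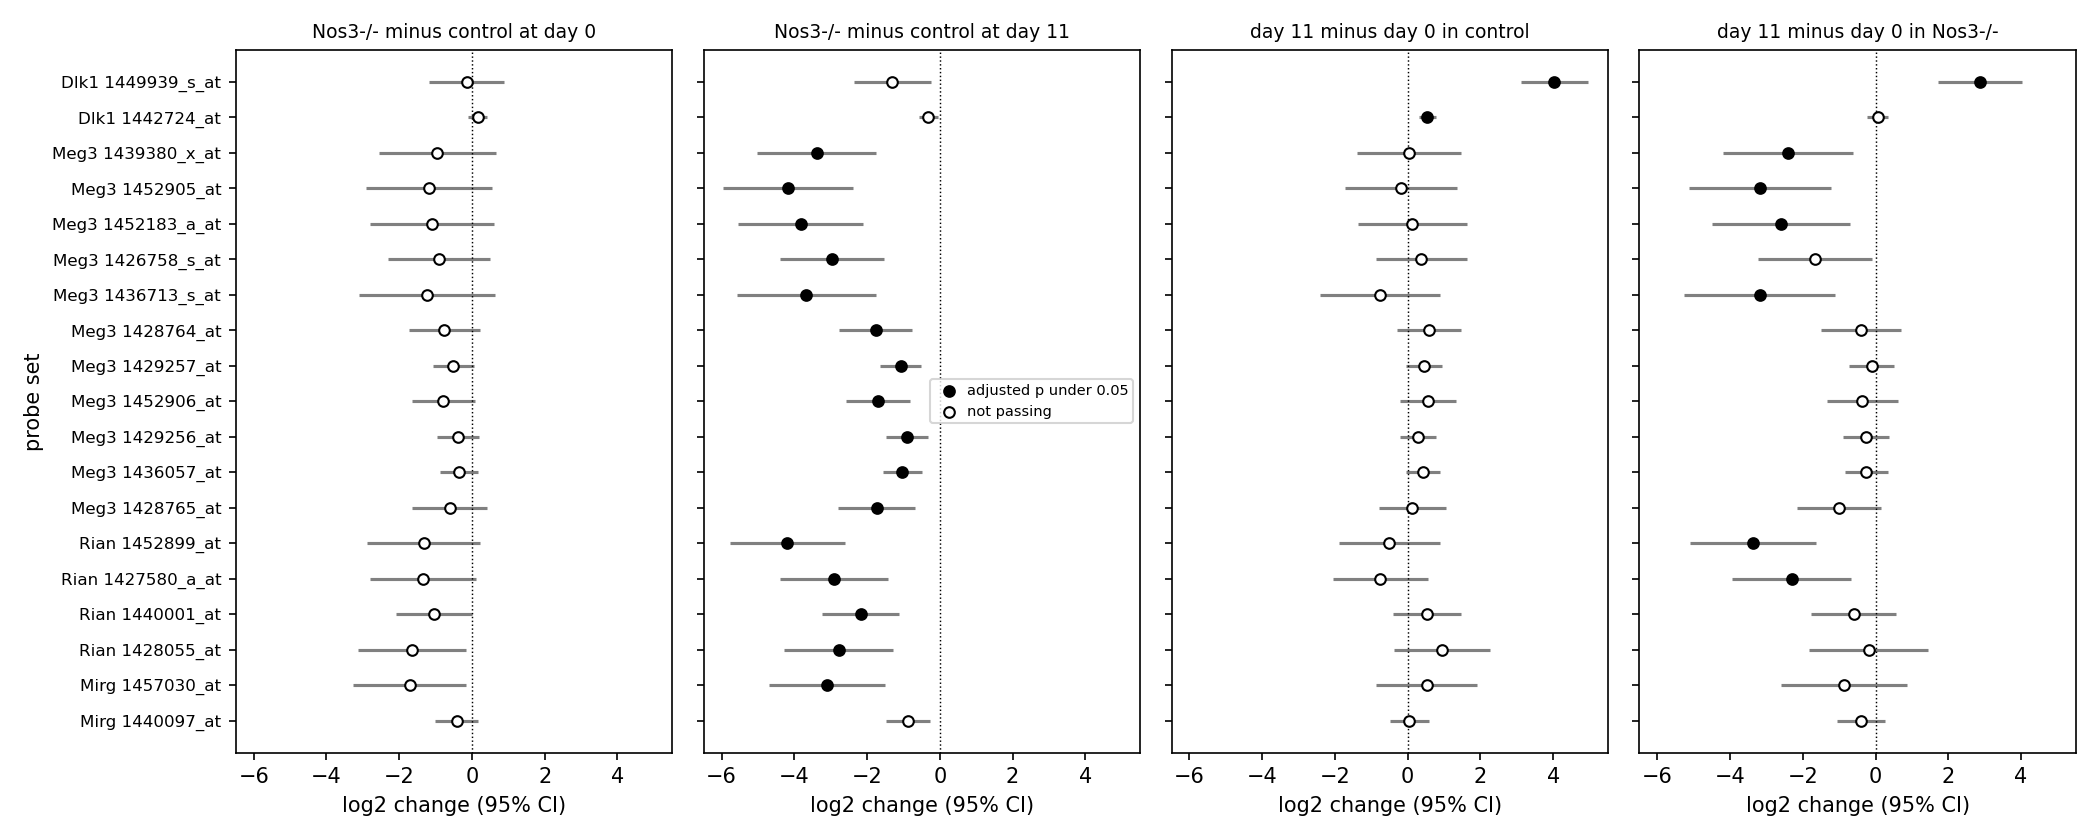
Log2 difference of each of the 19 probe sets with its 95% confidence interval in 4 comparisons, with filled points for limma adjusted p under 0.05. At day 11 16 of 17 non-coding points are filled, all below 0, at day 0 none are, and the 2 Dlk1 points are filled over time in control.

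From day 0 to day 11 in control cells, 2 of the 19 rose, both of Dlk1, against 17.5% of all probe sets higher and 33% changed. Dlk1 1449939_s_at rose by 4.04 (SE 0.45, limma adjusted p = 4.87e-08), from 6.30 ± 0.34 (SD, n = 10) to 10.33 ± 1.01 (SD, n = 9), and the groups did not overlap, as in 6.01% of all probe sets. Dlk1 1442724_at rose by 0.54 (SE 0.11, limma adjusted p = 0.000365). Of the 17 non-coding probe sets 0 passed, with 0 at an unadjusted p under 0.05 and differences from -0.76 to 0.94. For Rian 1452899_at the difference was -0.50 with a 95% confidence interval from -1.88 to 0.88; the test does not show that the level stayed the same.

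In Nos3-/- cells, 7 of the 19 changed over time. Dlk1 1449939_s_at rose by 2.88 (SE 0.57, limma adjusted p = 0.000375), from 6.15 ± 0.71 to 9.03 ± 1.85 (SD, n = 6 each), against 14.8% of all probe sets higher, while 1442724_at differed by 0.06 (limma adjusted p = 0.779). Of the non-coding probe sets 6 of 17 fell, against 13.7% of all probe sets lower and 28.5% changed. They were 4 of 11 for Meg3, with changes from -3.19 to -2.40, and 2 of 4 for Rian, and all 17 estimates were negative. Rian 1452899_at fell by 3.37 (SE 0.85, limma adjusted p = 0.00353), 10.4-fold, and the 6 arrays of day 11, at most 7.82, did not overlap with the 6 of day 0, at least 9.32. Such a lack of overlap held for 8.76% of all probe sets. Mirg 1457030_at differed by -0.87 (SE 0.85, limma adjusted p = 0.477), and whether its day 11 levels lie above background was not tested. Its SD was 0.58 at day 0 and 0.24 at day 11 here, against 1.74 and 2.11 in control, and all 4 enter this SE.

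The call for Meg3 1439380_x_at over time in Nos3-/- cells, at -2.40 (SE 0.88, limma adjusted p = 0.0395), was lost in 9 omissions of 1 array, with adjusted p from 0.0191 to 0.0797 over all omissions. The count of 7 fell to 4 without Nos3-/- day 0 replicate 1, Nos3-/- day 0 replicate 2 or Nos3-/- day 11 replicate 2, and was 5 without replicate 3 of either Nos3-/- group. On the 12 Nos3-/- arrays alone, it was 11, and Mirg 1457030_at then passed (SE 0.23, limma adjusted p = 0.0199).

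The 2 changes over time were compared by an interaction term. For 0 of the 19 did the change from day 0 to day 11 differ between genotypes past the threshold, against 0.772% of all probe sets. An unadjusted p under 0.05 was found in 6, and the share of all probe sets with one was not taken. The difference was -2.87 for Rian 1452899_at (SE 1.08, 95% confidence interval -5.09 to -0.66, limma adjusted p = 0.216), -2.44 for Meg3 1439380_x_at (SE 1.12, adjusted p = 0.320), -1.39 for Mirg 1457030_at (SE 1.09, adjusted p = 0.612) and -1.16 for Dlk1 1449939_s_at (SE 0.73, adjusted p = 0.492). Without control day 11 replicate 1, the control array with the lowest Rian level, Rian differed by -3.48 and passed (limma adjusted p = 0.0462), as the 1 probe set of the 19 that did. That the fall over time was called in Nos3-/- and not in control cells is thus not a tested difference on all arrays.

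Markers of fibroblasts, which line the day 0 cultures as feeder cells, were given beside these results because embryonic fibroblasts can express genes of this cluster. The mean log2 level of 19 fibroblast markers lay between 9.75 and 10.99 in control and between 9.37 and 10.39 in Nos3-/- arrays at day 0. At day 0, 7 of the 19 were lower in Nos3-/- cells and 0 higher, by genes against 6.57% and 8.29% of all 18194 genes. At day 11, where the labels name no feeder layer, the means lay between 8.95 and 10.24 in control and between 8.23 and 9.07 in Nos3-/- arrays, and 10 of the 19 were lower and 1 higher, against 5.20% and 4.33% of all genes. Postn, a matrix protein of fibroblasts, differed by -3.76 there (limma adjusted p = 2.40e-08), and S100a4, a calcium-binding protein, by 1.73 in the other direction (limma adjusted p = 0.0133; 0.0502 at the highest with 1 array left out).

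Within control day 11, the 5 arrays high in Rian had fibroblast marker means of 9.49, 9.47, 10.01, 9.45 and 10.15, and the other 4, replicates 1, 2, 7 and 9, had 8.95, 9.45, 10.24 and 9.99. The highest fibroblast mean of the group was on replicate 7, with Rian at 8.82, and the lowest on replicate 1, with Rian at 6.21. Within control day 0, the 5 high arrays had 10.86, 10.14, 10.99, 10.70 and 10.26 and the others ran from 9.75 to 10.70. When the fibroblast mean entered the fit of the 16 day 0 arrays as a covariate, the differences moved to -0.31 for Meg3, -0.70 for Rian, -1.01 for Mirg and 0.13 for Dlk1, each without passing (limma adjusted p from 0.731 to 0.954). Other lineages also differed at day 11: 8 of 11 markers of visceral endoderm and liver were lower and 0 higher in Nos3-/- embryoid bodies, and 6 of 12 pluripotency markers were higher and 0 lower, against the same 5.20% and 4.33% of all genes. Within control day 11, the mean of the 11 visceral endoderm and liver markers was 10.54, 11.46, 7.83, 7.01 and 10.70 on replicates 3, 4, 5, 6 and 8, high in Rian. On replicates 1, 2, 7 and 9 it was 8.34, 7.66, 8.91 and 8.72. The part of these cell types in the day 11 differences of the members, or in the gap between control day 11 arrays, was not tested.

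**Figure D5:**
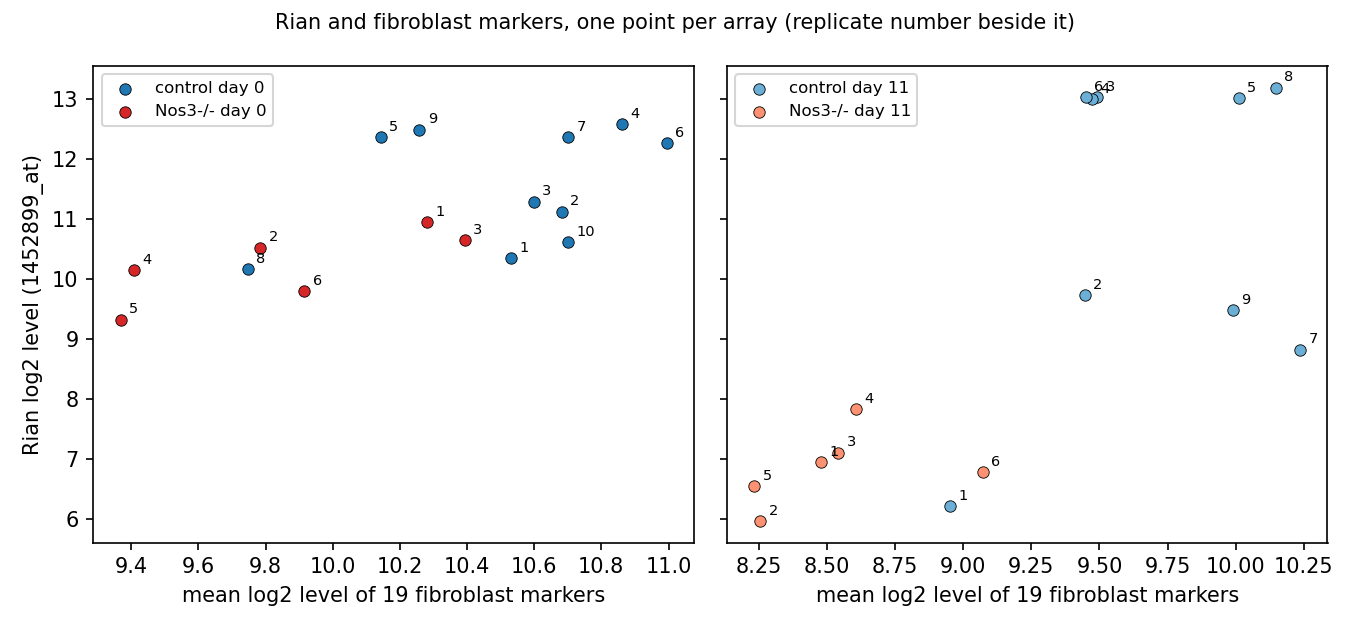
Rian log2 level (vertical axis) against the mean log2 level of 19 fibroblast markers (horizontal axis) on day 0 arrays (left) and day 11 arrays (right), with the replicate number beside each point. In control day 11, arrays with Rian from 13 to 13.19 span fibroblast means from 9.45 to 10.15. Those with Rian between 8.82 and 9.73 span 9.45 to 10.24, and the array with Rian at 6.21 has 8.95.

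Genes on either side of the cluster were followed at their most abundant probe set. Of 15 measured neighbours on chromosome 12, 1 was higher and 0 lower in Nos3-/- cells at day 11, with a median difference of -0.00444, against 9.53% of all genes changed, and 2 were higher and 1 lower at day 0, against 14.9%. The one at day 11 was Zfp839, a zinc finger gene, which differed by 0.78 (limma adjusted p = 6.99e-05) and by 1.16 at day 0 (adjusted p = 1.15e-07). Yy1, a transcription factor gene on the Dlk1 side, differed by -0.02 (adjusted p = 0.920) and Hsp90aa1, a chaperone gene on the Dio3 side, by 0.11 (adjusted p = 0.281) at day 11.

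Genes that maintain imprints and place DNA and histone methylation were followed next. Of 20 measured, 0 passed limma's test by genotype at day 11, with a median difference of 0.18, against 9.53% of all genes passing. An unadjusted p under 0.05 was found in 2, and at least those 9.53% of all genes had one. At day 0, 2 were higher and 0 lower in Nos3-/- cells, a share near the 8.29% of all genes higher: Eed, a Polycomb subunit, by 0.47 (limma adjusted p = 0.0114), and Dppa3, which protects imprints from demethylation and whose loss is tied to methylation of this locus in iPSCs, by 1.59 (adjusted p = 0.0486). The call of Dppa3 was lost in 24 omissions of 1 array, with adjusted p from 0.0024 to 0.155. Trim28, the co-repressor that holds methylation at imprinted control regions, differed by 0.07 at day 0 and 0.16 at day 11 (adjusted p = 0.794 and 0.558).

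Imprinted genes of other clusters were read in the same way. Of 19 maternally expressed ones, 0 were higher and 3 lower at day 11, against 4.33% and 5.20% of all genes, among them Phlda2, a growth-restraining placental gene, at -1.44 (limma adjusted p = 1.75e-05), and Klf14 at -0.74 (adjusted p = 9.93e-05). At day 0, 1 was higher and 3 lower, against 8.29% and 6.57% of all genes, among them Grb10, an inhibitor of insulin signalling, at -1.23 (adjusted p = 0.000578). Of 21 paternally expressed ones, 0 were higher and 4 lower at day 11, against 4.33% and 5.20% of all genes, and 0 were higher and 2 lower at day 0, the latter near the 6.57% of all genes lower. They include the zinc finger gene Plagl1, at -6.44 at day 11 (adjusted p = 2.74e-14) and -2.37 at day 0 (adjusted p = 2.06e-05). Dlk1 rose over time as did 13 of these 21 in control, against 16% of genes higher, and 10 of 21 in Nos3-/- cells, against 12.8%, the growth factor gene Igf2 by 3.52 and 3.12.

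Genes linked to the functions of the members were counted last. Of 17 genes of the Notch pathway, which Dlk1 protein can modulate, 0 were higher and 3 lower in Nos3-/- cells at day 0 and 1 was higher and 1 lower at day 11. Of 10 measured thyroid hormone genes, the setting in which Dio3 acts as the inactivating deiodinase, 0 were higher and 1 lower at day 0 and 1 was higher and 1 lower at day 11. Over all genes, 14.9% passed at day 0 and 9.53% at day 11.

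The pattern across arrays that the non-coding RNAs share was compared with other genes, without symbols of predicted genes and clones. The measure was Pearson's r over the 31 arrays, after taking off each group mean, to the mean of Meg3, Rian and Mirg. The probe sets used for this mean are part of it. By this measure the 17 non-coding probe sets had r from 0.88 to 0.98 and the 2 Dlk1 probe sets -0.07 and 0.01. These r join all 4 groups, among them control day 11 with its gap between arrays, for which no r was given above. Among the genes compared, the nearest outside the locus were Itfg2 (0.62), Ift88 (0.62), Orm1 (0.62), Mdga2 (0.60) and Dok3 (0.60). The most opposed were Zfp677 (-0.68), Usp43 (-0.67) and Ceacam1 (-0.63). On the Nos3-/- day 11 arrays alone, r was -0.000747 for Itfg2, 0.00739 for Ift88, 0.48 for Orm1, 0.84 for Mdga2 and -0.46 for Dok3. For the opposed genes it was -0.69 for Zfp677, 0.08 for Usp43 and -0.60 for Ceacam1. Itfg2 spanned less than the members, from 8.25 over 8.52 to 8.70 on control day 11 arrays. Zfp677 ran from 6.37 over 7.62 to 8.99 on the same arrays. As the 8 were picked for this value from all genes compared, the r are a description and carry no test.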

How the data were processed

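RNA of 31 samples was hybridised to 31 Affymetrix arrays. The deposited values are log2 levels per probe set after RMA (robust multi-array average), per the submitters' processing notes; its version and settings are not given in the sources used here. They were used as deposited. Limma 3.58.1 (R 4.3.3) fitted 4 group means to each of the 45101 probe sets, with Benjamini-Hochberg adjustment over all probe sets and a threshold of 0.05. The fit was tested on data simulated with 1 spread per probe set in all 4 groups. That test does not cover probe sets whose groups spread unequally, as the non-coding members do. The fit takes 1 spread per probe set from all 4 groups, so its SE and intervals assume that the groups spread alike. Permutation tests over arrays were used for single values. Those of spread permuted deviations from the centre of each group, so their p is approximate. Genes came from the platform annotation: 34958 probe sets had 1 symbol, 932 several and 9211 none, and no gene was named from one with several. For lists of genes, the probe set brightest on average stood for a gene. The members and all lists were chosen with earlier results of these data known. From each list, the text could name up to 2 passing genes with the highest and 2 with the lowest change in any comparison and up to 2 abundant genes that did not pass; for likeness, the 5 highest and 3 lowest genes. Array values carry no counts, so the number of arrays limits the precision. Correlations of the deviations of same-numbered arrays ran from -0.22 to 0.34. With no values for arrays of different numbers beside them, these do not show whether replicate numbers pair samples. Rtl1, Dio3 and the miRNAs were not analysed here.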

Additional observations from a re-analysis of the deposited data

Results flagged for a closer look

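Of 76 groups of member values tested for a single array far from the others (Dixon's test), 2 were marked, and chance marks about 1 in 20. In Nos3-/- day 11, replicate 4 was far above the other 5 arrays in Meg3 1426758_s_at, at 7.77. In Nos3-/- day 0, replicate 6 was far below the others in Meg3 1436057_at, at 5.19. On these arrays Meg3 1439380_x_at read 8.98, the highest of its group, and 8.87, the second lowest.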

How the results depend on the processing

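The count at day 11 was 16 with quantile normalization, with arrays centred on their medians and with a trended robust fit, 17 with array weights and 15 without dim probe sets. On the arrays of the compared groups alone it was 7. The same fit gave 1 in place of 0 at day 0 (1 gene, Rian) and 11 in place of 7 over time in Nos3-/- cells. The differences stay the same in it, and the spread is taken from the compared groups in place of all 4. With probe sets averaged per gene, 1 gene in place of 3 passed over time in Nos3-/- cells. Leaving out 1 array gave 0 to 0 probe sets at day 0, 14 to 17 at day 11 (3 to 4 genes), 2 to 3 over time in control, 4 to 7 in Nos3-/- cells (2 to 3 genes) and 0 to 1 for the interaction. With the replicate number as a block, which the labels do not tie to a line, mouse or culture, the counts were 0, 14, 2, 6 and 0 in this order. With the standard deviation as the measure, the spread at day 11 differed by 1.68 for Meg3, 1.95 for Rian and 1.87 for Mirg and passed. Signs turned only where no call was made. For Dlk1 1449939_s_at at day 0 the difference was 0.00983 with probe sets averaged, 0.13 with the block and 0.13 with the fibroblast covariate, under which Meg3 1428765_at had 0.0124. Over time in control, Rian had 0.0531 with probe sets averaged, and with the block Meg3 1428765_at had -0.0178, Meg3 1439380_x_at -0.26, Mirg 1440097_at -0.0567 and Meg3 1452183_a_at -0.16. Without 1 array, these changes over time in control ran from -0.17 to 0.38 for Meg3 1428765_at, -0.26 to 0.54 for 1439380_x_at, -0.21 to 0.63 for 1452183_a_at, -0.48 to 0.40 for 1452905_at, -0.10 to 0.16 for Mirg 1440097_at and -0.77 to 0.10 for Rian 1452899_at. The cause of the other shifts was not tested.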
